A study of Rattus norvegicus with 32 samples.

Results

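Transcripts of 10 genes that mark Kupffer cells and other macrophages were followed in RNA from isolated liver sinusoidal endothelial cells (LSECs), the fenestrated endothelium of the hepatic capillaries. The genes, with the identifiers of the files, were Clec4f (ENSRNOG00000013137), Vsig4 (ENSRNOG00000038132), Cd163 (ENSRNOG00000010253), Marco (ENSRNOG00000049303), C1qa (ENSRNOG00000012807), C1qb (ENSRNOG00000012749), C1qc (ENSRNOG00000012804), Cd68 (ENSRNOG00000037563), Csf1r (ENSRNOG00000018414) and Cd5l (ENSRNOG00000023068). They were taken by symbol, as known markers and with earlier results of these data known, from the 32623 genes quantified in every library. All 10 were found and all 10 passed the low-count filter in each of the 7 comparisons.

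In the carbon tetrachloride (CCl4) model, Wistar Han rats inhaled this hepatotoxin for 2 weeks (acute injury, n = 5), 6 weeks (fibrosis, n = 5) or 12 to 14 weeks (cirrhosis, n = 6), and LSECs of 6 untreated Wistar Han rats served as healthy LSECs. The duration of CCl4 in cirrhosis was taken from the series description, since the labels leave it out. The study's methods name male rats, phenobarbital in the drinking water of the CCl4 model, and isolation some days after the last dose of toxicant. A second experiment with thioacetamide (TAA), another hepatotoxin, has 5 libraries labelled control and 5 labelled TAA control rat. The labels give Wistar Han for these as well, whereas the series description and the methods give Sprague-Dawley rats, healthy or TAA-cirrhotic, and which label stands for the treated rats was not settled. Levels are therefore compared between these 2 groups by label only, and never with the CCl4 libraries, from which they were scaled separately.

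Kupffer cells are the resident macrophages of the liver and sit in the sinusoid, attached to LSECs, where they clear particles, bacteria and aged red cells from portal blood. Their identity depends on signalling through the CSF1 receptor and on the transcription factors PU.1 (Spi1), c-Maf and LXRα (Nr1h3), and LSECs and stellate cells supply signals that maintain it. Injury can empty the Kupffer cell niche, which is then refilled by proliferation or by monocytes that take on Kupffer cell genes over time. The markers differ in breadth. Clec4f, a C-type lectin, is confined to Kupffer cells in rodents, Vsig4 (a complement receptor), Marco (a scavenger receptor) and Cd163 (the haemoglobin-haptoglobin receptor) are carried by resident macrophages, Cd5l is secreted by them, C1qa, C1qb and C1qc encode the chains of complement C1q and are made by most tissue macrophages, and Cd68 and Csf1r are shared by all cells of the mononuclear phagocyte lineage.

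LSECs were isolated by density gradient centrifugation, so that other sinusoidal cells can be carried along. In bulk RNA of this kind, fewer cells of a type and less RNA per cell cannot be told apart. Markers of LSECs were abundant in all libraries, but their summed level was 16940 to 32900 CPM (counts scaled to a common library size) in healthy LSECs, 2488 to 3353 in acute injury, 1759 to 2873 in fibrosis and 15700 to 20890 in cirrhosis. This sum covers 11 genes, among them Stab2, Clec4g and Lyve1. The part of this fall in the results below was not tested.

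The 32 libraries held 25646531 to 46464289 expected counts each. Within the healthy group, replicates 3 and 5 stood apart. The 10 markers summed to 394 CPM in replicate 3 and 513 CPM in replicate 5, against 1795 to 4446 CPM in the other 4 healthy libraries. Hepatocyte transcripts (10 genes, among them Alb and Apoa1) were low in the same libraries, at 3616 and 1314 CPM against 14565 to 28730 CPM, whereas LSEC markers reached 26958 and 32902 CPM there. Each comparison with healthy LSECs is therefore also given without these 2 libraries, a setting chosen after the data were seen. Since they were picked for low levels of these same markers, leaving them out raises the healthy level. The marker differences from healthy LSECs then shift downwards by this choice, and the p-values of that setting are no independent support for a decrease.

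**Figure D1:**
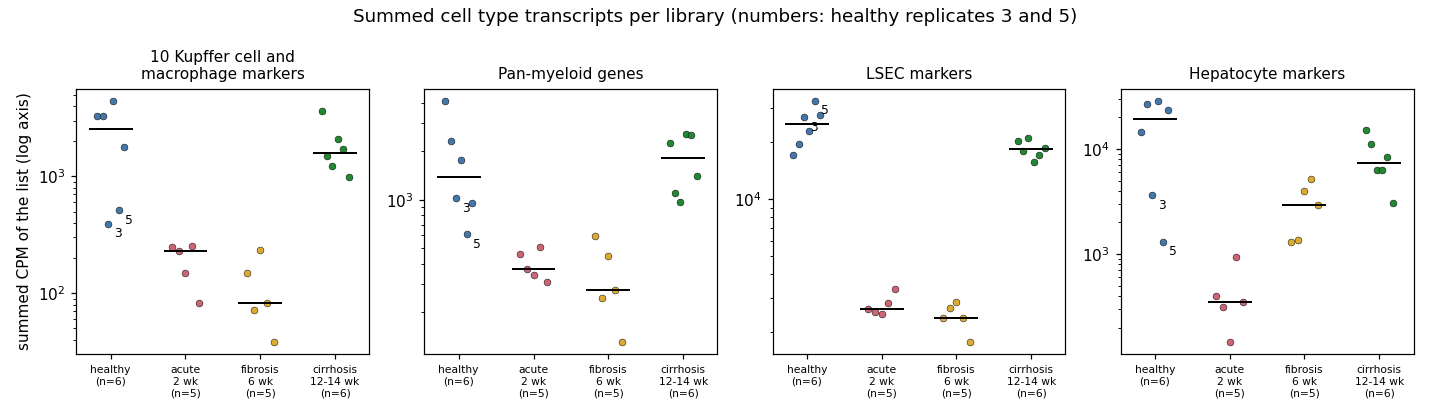
Summed CPM per library (log axis) of the 10 markers, of 15 pan-myeloid genes, of 11 LSEC genes and of 10 hepatocyte genes in the 4 groups of the CCl4 model; points are libraries and bars are medians. Healthy replicates 3 and 5, marked by their numbers, lie at 394 and 513 CPM for the 10 markers, below the other 4 healthy libraries, and are low for hepatocyte genes too.

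Since the markers share a cell type and moved together, the sequence just upstream of their annotated start sites is shown for 4 of them: Clec4f, the marker with the narrowest cell type, C1qa and C1qb, neighbours on chromosome 5 whose levels ran in parallel, and Cd5l, which held both motifs searched. RefSeq (GRCr8, not the Rnor_6.0 build to which the reads were mapped) gave such a window of 250 bases for 9 of the 10 genes. Capitals mark GAGGAA, one form of the letters bound by PU.1, and TGCTGA, a MAF half-site, or their reverse complements TTCCTC and TCAGCA. Other forms of these sites were not searched and are not marked.
Clec4f, GRCr8 chr4:117696408-117696657 (minus strand): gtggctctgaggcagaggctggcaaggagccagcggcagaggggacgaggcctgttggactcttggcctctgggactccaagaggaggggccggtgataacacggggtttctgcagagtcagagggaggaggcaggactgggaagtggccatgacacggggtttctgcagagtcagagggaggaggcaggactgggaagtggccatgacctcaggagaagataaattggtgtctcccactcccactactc
C1qa, GRCr8 chr5:154419934-154420183 (minus strand): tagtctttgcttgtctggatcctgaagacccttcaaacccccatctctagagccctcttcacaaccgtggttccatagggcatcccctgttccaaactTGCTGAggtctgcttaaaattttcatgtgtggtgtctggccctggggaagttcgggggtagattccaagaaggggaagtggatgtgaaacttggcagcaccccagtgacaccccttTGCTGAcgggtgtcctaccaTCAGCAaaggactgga
C1qb, GRCr8 chr5:154407828-154408077 (minus strand): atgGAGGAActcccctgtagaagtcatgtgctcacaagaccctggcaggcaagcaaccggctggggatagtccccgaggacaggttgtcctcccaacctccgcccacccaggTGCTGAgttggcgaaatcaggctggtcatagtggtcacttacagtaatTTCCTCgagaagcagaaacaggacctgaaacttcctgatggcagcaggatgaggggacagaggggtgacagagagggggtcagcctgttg
Cd5l, GRCr8 chr2:175088665-175088914 (plus strand): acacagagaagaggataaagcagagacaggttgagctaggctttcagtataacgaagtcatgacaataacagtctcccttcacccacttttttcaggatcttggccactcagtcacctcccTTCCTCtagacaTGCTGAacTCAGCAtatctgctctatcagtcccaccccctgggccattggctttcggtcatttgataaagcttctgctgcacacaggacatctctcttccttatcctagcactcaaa
GAGGAA stood in 5 of the 9 windows on either strand (Marco, C1qb, Cd68, Csf1r and Cd5l) and in 23.3% of 33469 rat promoter windows of the same length. TGCTGA stood in 3 of the 9 (C1qa with 3 matches, Cd5l with 2 and C1qb with 1) and in 15.1% of all windows. The 2 motifs do not overlap in letters. The Clec4f window held neither, and these matches of short letters describe sequence, not binding.

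After 2 weeks of CCl4, all 10 markers were lower than in healthy LSECs. The largest fitted decreases were those of Clec4f and Cd5l, at 21.2-fold and 18.7-fold, and the smallest those of Cd163 and Cd68, at 3.07-fold and 3.29-fold. Genes were called at an unadjusted p under 0.05 and a fold-change above 1.5 in limma-voom. By this rule 38.3% of the 14317 genes tested were lower and 74.1% differed in either direction, so that differing from healthy LSECs was common among all genes at this stage. Their median difference was -3.42 on the log2 scale, against -0.09 over all genes tested. By adjusted p 9 of the 10 were lower, against 37.9% of all genes. Samples did not overlap for 6 of the 10 markers, as for 30.8% of all genes with lower values.

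Clec4f was at 582, 672, 45.6, 1176, 94.3 and 402 CPM in healthy replicates 1 to 6. It was at 24.7, 24.9, 10.6, 13.8 and 5.60 CPM in the 5 libraries of acute injury. Each acute library lay below each healthy library, replicates 3 and 5 included, and the fitted log2 difference was -4.40 (SE 0.824, limma-voom adjusted p = 0.00036). Cd5l, a scavenger-like protein that macrophages secrete, fell from a healthy median of 279 CPM (35.4 to 451) to 20.5, 17, 5.81, 8.55 and 3.92 CPM, again without overlap (log2 difference -4.22, SE 0.745, adjusted p = 0.00023).

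The 3 chains of C1q, the recognition unit of the classical complement pathway, all fell. C1qa was at 44.6 to 592 CPM in healthy LSECs, with a median of 332 CPM, and at 24.6, 26.6, 15, 22.5 and 9.30 CPM in acute injury. The log2 differences were -3.42 for C1qa (SE 0.704, adjusted p = 0.000734), -3.79 for C1qb (SE 0.747, adjusted p = 0.000533) and -3.76 for C1qc (SE 0.731, adjusted p = 0.00048). Healthy and acute libraries did not overlap for any of the 3.

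Among the receptors, Vsig4 fell by 3.43 (SE 0.929, adjusted p = 0.00472) and Marco by 3.24 on the log2 scale (SE 0.886, adjusted p = 0.00501). For each of them the healthy replicate 3 lay within the acute range. Cd163 was the least lowered, at 16.6, 18.1, 15.3, 28 and 7.0 CPM against a healthy range of 8.59 to 129 CPM (log2 difference -1.62, SE 0.716, unadjusted p = 0.0426), and it did not pass an adjusted p (0.055). Its call was lost in 8 of the 11 fits that left out 1 library, all but those without healthy replicate 3, healthy replicate 5 or acute replicate 4. The general macrophage genes had smaller fitted decreases than Clec4f, a difference between genes that was not tested. Csf1r, the receptor for the growth factors CSF1 and IL-34, fell by 2.31 (SE 0.502, adjusted p = 0.00107) and Cd68, a lysosomal membrane protein, by 1.72 on the log2 scale (SE 0.594, adjusted p = 0.0186). Without TMM scaling, which moved the median of all genes by 0.41 on the log2 scale, Cd163 (-1.22, unadjusted p = 0.135) and Cd68 (-1.31, unadjusted p = 0.0549) were no longer called. Without healthy replicates 3 and 5, all 10 markers were called lower, with log2 differences from -2.49 (Cd68) to -5.46 (Clec4f). The larger decreases in that setting follow from the choice of libraries.

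**Figure D2:**
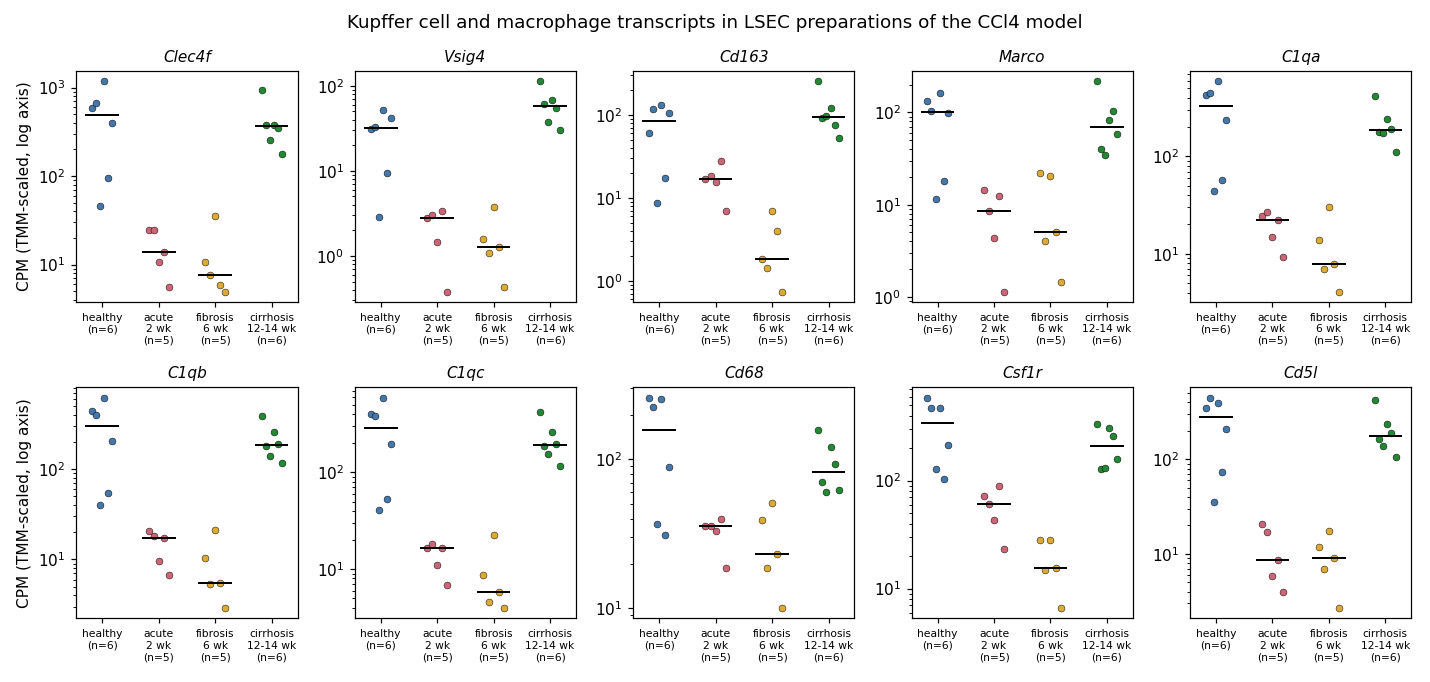
CPM of each of the 10 markers per library (log axis) in healthy LSECs and after 2, 6 and 12 to 14 weeks of CCl4; points are libraries and bars are medians. Levels after 2 and 6 weeks lie low, with Clec4f at 4.96 to 35.0 CPM, and those in cirrhosis are high again, with Clec4f at 179 to 928 CPM and Vsig4 in 4 of 6 libraries above its healthy maximum of 52.1 CPM.

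After 6 weeks, at the stage of fibrosis, all 10 markers were again lower than in healthy LSECs, among 35.4% of 14538 genes tested that were lower and 71.2% that differed. The log2 differences ran from -2.04 for Cd68 to -4.91 for Clec4f, with a median of -4.33 against -0.03 over all genes, and all 10 passed an adjusted p, as did 34.9% of all genes in that direction. The groups did not overlap for 7 markers, as for 29.5% of all genes with lower values.

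Clec4f was at 10.7, 7.53, 35.0, 5.88 and 4.96 CPM in fibrosis, a fold-change of 30.1 (SE of the log2 difference 0.894, adjusted p = 0.000336). C1qa was at 13.8, 7.04, 30.4, 7.82 and 4.10 CPM (log2 difference -4.27, SE 0.809, adjusted p = 0.00045). Replicate 15 was the highest fibrosis library for both, and replicate 17 the lowest. The other chains fell by 4.65 (C1qb, SE 0.854) and 4.58 (C1qc, SE 0.833) on the log2 scale, Cd5l by 4.39 (SE 0.768), Cd163 by 4.39 (SE 0.982), Csf1r by 3.93 (SE 0.544), Marco by 3.08 (SE 0.921) and Vsig4 by 3.88 (adjusted p = 0.00323). Without healthy replicates 3 and 5 all 10 were again called lower, with log2 differences from -2.89 (Cd68) to -6.03 (Clec4f). These larger decreases again follow from the choice of libraries.

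Most markers were not called between acute injury and fibrosis. Cd163 and Csf1r were called lower in fibrosis than in acute injury, 2 of 10 where 1.39% of 13931 genes tested were lower and 15.7% differed. Both passed an adjusted p, as did 0.732% of all genes with lower values. Cd163 was at 1.83, 1.44, 6.93, 4.02 and 0.745 CPM in fibrosis, below every acute library (as for 12.6% of all genes with lower values), a fold-change of 6.76 (log2 difference -2.76, SE 0.59, adjusted p = 0.0114). Csf1r was at 28.4, 15, 28, 15.5 and 6.65 CPM in fibrosis and at 71.8, 61.2, 42.9, 89.1 and 23.4 CPM in acute injury, which overlap by 1 acute library, replicate 8 (log2 difference -1.60, SE 0.463, adjusted p = 0.0349). The other 8 markers were not called, with log2 differences from -0.84 (C1qa, 95% interval -1.88 to 0.20) to 0.17 (Marco, -1.72 to 2.06). Between them lay C1qb (-0.84), C1qc (-0.79), Clec4f (-0.49), Vsig4 (-0.43), Cd68 (-0.31) and Cd5l (-0.13). The number called lower was 5 without acute replicate 8, 5 without fibrosis replicate 15, and 6 when libraries were weighted by their quality.

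In cirrhosis the markers were high again. Compared with fibrosis, all 10 rose (34.5% of 15186 genes tested were higher and 64.2% differed), and compared with acute injury all 10 rose as well (37.8% of 15005 genes were higher and 69.7% differed). For all 10 markers and both comparisons the groups did not overlap, as for 32.4% and 34.1% of all genes with higher values. The median log2 difference of the markers was 4.61 from fibrosis and 3.66 from acute injury, against 0.04 over all genes in each. Over all genes, acute injury and fibrosis stood closer to each other than to the other groups of the model. Between them 15.7% of genes tested differed, against 74.1% and 71.2% from healthy LSECs. A shared handling of these libraries was not tested and cannot be told apart from the stage.

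Clec4f in cirrhosis was at 928, 382, 257, 382, 346 and 179 CPM, 36.5-fold above fibrosis (SE of the log2 difference 0.509, adjusted p = 1.5e-06). Cd163 rose most from fibrosis, to 52.2 to 253 CPM with a median of 93.7 CPM, a fold-change of 43.7 (log2 difference 5.45, SE 0.668, adjusted p = 1.09e-05). Vsig4 rose by 5.38 on the log2 scale (SE 0.665, adjusted p = 1.19e-05). Cd68 rose least, by 1.80 (SE 0.392, adjusted p = 0.00113), and Marco by 3.40 (SE 0.733, adjusted p = 0.00104). The C1q chains rose by 4.30 (C1qa), 4.72 (C1qb) and 4.76 (C1qc), Cd5l by 4.49 and Csf1r by 3.58. From acute injury the log2 increases were 4.88 for Vsig4, 4.63 for Clec4f, 4.28 for Cd5l, 3.89 for C1qc, 3.81 for C1qb, 3.50 for Marco, 3.40 for C1qa, 2.63 for Cd163, 1.92 for Csf1r and 1.43 for Cd68.

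Against healthy LSECs, 1 of the 10 markers was called in cirrhosis, where 54.5% of 14789 genes tested differed and 28.8% were higher. Vsig4 was at 113, 61.4, 37.9, 68.1, 54.6 and 30.1 CPM in cirrhosis and at 2.85 to 52.1 CPM, with a median of 31.9 CPM, in healthy LSECs (log2 difference 1.43, SE 0.599, unadjusted p = 0.0321, adjusted p = 0.0546). The ranges overlap, and edgeR's quasi-likelihood test called none of the 10. The call of Vsig4 was also lost without healthy replicate 3 or 5 or cirrhosis replicate 1, 2, 4 or 5, at log2 differences of 0.90 to 1.45. The other 9 had log2 differences of -0.42 for Csf1r, -0.31 for Cd68, -0.04 for C1qa, 0.04 for Cd5l, 0.12 for C1qc, 0.21 for Clec4f, 0.25 for Marco and 1.0 for Cd163, and C1qb was at 0, with 95% intervals as wide as -1.32 to 1.74 for Clec4f and -1.38 to 1.3 for C1qa, which leave room for changes in either direction.

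The comparison turned on healthy replicates 3 and 5, which were picked for low levels of these same markers. Without them the marker differences shift downwards by this choice. The share of all genes called lower is not given for that fit (with all libraries, it was 25.7%). In it, 7 markers were called lower in cirrhosis and none higher. Their log2 differences were -1.15 for Cd68 (limma-voom adjusted p = 0.0178), -1.05 for C1qa (adjusted p = 0.0207), -1.03 for Csf1r (adjusted p = 0.0282), -1.02 for C1qb (adjusted p = 0.0302), -0.91 for Clec4f (adjusted p = 0.0746), -0.89 for C1qc (adjusted p = 0.0546) and -0.88 for Cd5l (adjusted p = 0.0496). Vsig4 was then at 0.49 (unadjusted p = 0.156) and Cd163 at -0.01. Since the choice of libraries sets the direction of the shift, these calls and p-values are no evidence of a decrease in cirrhosis. Hepatocyte transcripts moved with these libraries, and their part was not tested.

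**Figure D3:**
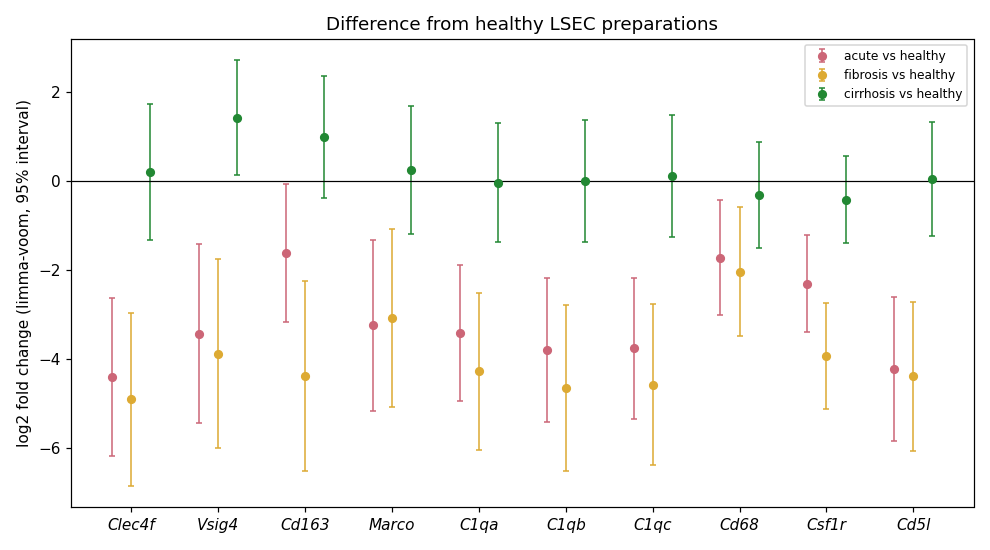
Log2 fold-change of each marker against healthy LSECs in acute injury (2 weeks), fibrosis (6 weeks) and cirrhosis, with 95% intervals from limma-voom; the line at 0 is no change. All values for acute injury and fibrosis lie below 0, from -1.62 to -4.91, and those for cirrhosis lie around 0, with Vsig4 at 1.43.

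Set against the C1q chains of the same library, some markers changed their proportion between stages and others had overlapping ranges throughout. The difference in log2 CPM between a marker and the mean of C1qa, C1qb and C1qc is given here as a description, without a test, and the scaling of libraries cancels in it. CPM are not per gene length, so only the change of a gene's value between stages is read, not its distance from 0. The 3 chains stayed within -0.31 to 0.37 of their mean in the CCl4 libraries. Clec4f was at 0.13 to 0.97 in healthy LSECs, -0.43 to 0.28 in acute injury, -0.10 to 0.52 in fibrosis and 0.59 to 1.19 in cirrhosis, so that healthy and cirrhotic libraries overlapped. Cd5l was at -0.61 to 0.43 in healthy LSECs, -1.11 to 0.01 in acute injury, -0.48 to 0.51 in fibrosis and -0.17 to 0.07 in cirrhosis, and Marco at -1.99 to -1.11, -2.70 to -0.51, -1.30 to 1.05 and -2.16 to -0.89, with overlap between every pair of stages for both.

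Cd68, the broad phagocyte marker, was at -1.26 to -0.19 in healthy LSECs, 0.78 to 1.52 in acute injury, 1.06 to 1.87 in fibrosis and -1.37 to -0.88 in cirrhosis. Every library of acute injury and fibrosis lay above every healthy and cirrhotic library. The value also varied within a group. In the libraries labelled control of the TAA experiment, Cd68 spanned -1.15 to 1.70. It was highest there in replicates 4 (1.70) and 5 (0.70), where the C1q chains were lowest. Of the healthy libraries low in C1q, replicate 3 was the highest for Cd68, at -0.19, and replicate 5 was at -0.83. A dependence of this value on the level of C1q was not tested. Csf1r was at -0.35 to 1.61 in healthy LSECs and 1.56 to 2.27 in acute injury, where only healthy replicate 3 reached the acute range, and at 0.19 to 1.42 in fibrosis and -0.49 to 0.48 in cirrhosis. Cd163 was highest in acute injury, at -0.29 to 0.60, where every library lay above those of healthy LSECs (-2.79 to -1.01), fibrosis (-2.54 to -0.65) and cirrhosis (-1.35 to -0.69). Vsig4 was highest in cirrhosis, at -2.04 to -1.56, above all 6 healthy libraries (-3.87 to -2.34), replicates 3 and 5 included at -3.87 and -2.54.

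**Figure D4:**
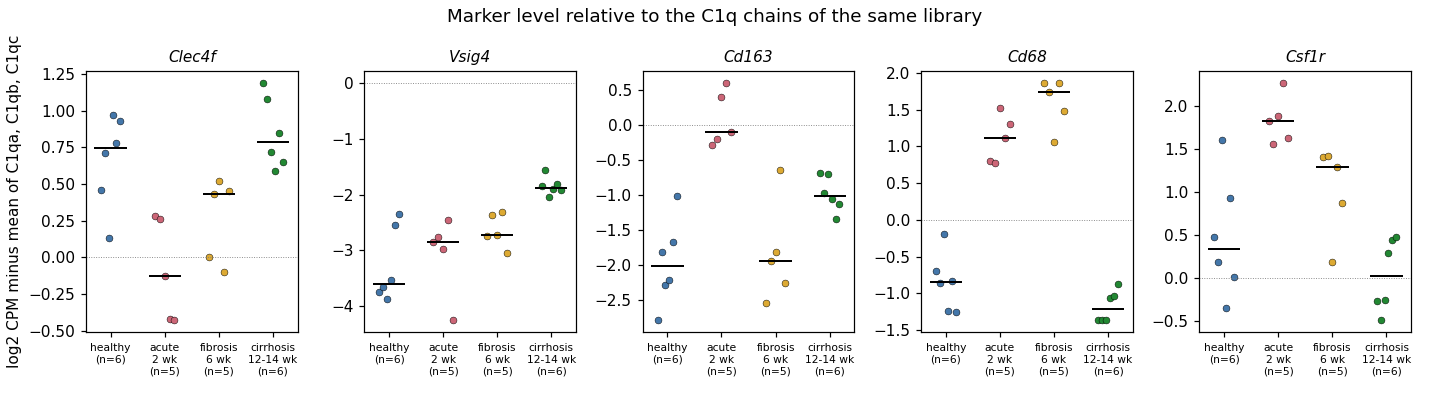
Log2 CPM of Clec4f, Vsig4, Cd163, Cd68 and Csf1r minus the mean log2 CPM of C1qa, C1qb and C1qc in the same library, for the 4 groups of the CCl4 model; points are libraries and bars are medians. Cd68 lies at 0.78 to 1.87 in acute injury and fibrosis and at -1.37 to -0.19 in the other groups, Cd163 is highest in acute injury, and Vsig4 is highest in cirrhosis.

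Other genes of resident macrophages did not all follow the markers. Of 12 such genes, 11 were tested in acute injury, and 5 were lower and 3 higher. Over all genes tested, 38.3% were lower in acute injury and 74.1% differed, and in fibrosis 35.4% and 71.2%. From fibrosis to cirrhosis 34.5% of all genes were higher and 64.2% differed. The counts for this list and the lists below stand beside these shares. The largest decreases were those of Gas6, a ligand of the TAM receptors (-4.38), and Mrc1, the mannose receptor, which LSECs carry as well (-3.70). LSEC markers fell in acute injury too, and the part of LSECs in the decreases of Gas6 and Mrc1 was not tested. The increases were Mertk, the TAM receptor of clearing macrophages (1.97), the inhibitory receptor Lilrb4 (1.85) and the iron exporter Slc40a1 (0.98, a symbol with 2 identifiers, of which the one with more counts was used, and not called without healthy replicates 3 and 5, at 0.71). In fibrosis 4 were lower and 4 higher, Hmox1 (1.70) among the latter. Mertk ranged only from 37.7 to 43.6 CPM in the TAA libraries labelled control, while the sum of the 10 markers ranged from 21.2 to 189 CPM. Which cells carried the increases was not tested. Timd4, a receptor of long-resident Kupffer cells, had 1 to 19 counts in the healthy libraries, 0 in all 10 libraries of acute injury and fibrosis, which allows up to 3 counts in each, and 27 to 77 in cirrhosis, and was higher in cirrhosis than in healthy LSECs (1.99).

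Of 12 lineage factors and CSF1R ligands, 8 were lower and 1 higher in acute injury, and again 8 and 1 in fibrosis. The ligand Il34, with 1 to 9 counts in the acute libraries and 29 to 120 in the healthy ones, had the lowest value in acute injury (-4.55), and Irf8 followed (-3.75). The other ligand, Csf1, was at 314 to 579 CPM in healthy LSECs and at 354 to 765 CPM in acute injury, and was not called (0.42). It was called higher without healthy replicates 3 and 5 (0.60, limma-voom adjusted p = 0.0302) and without TMM scaling (0.83). Zeb2, a repressor needed for Kupffer cell identity, was higher in both (1.99 and 2.02). In the TAA libraries labelled control, Zeb2 ranged only from 165 to 232 CPM, while the sum of the 10 markers ranged from 21.2 to 189 CPM. Which cells carried the increase of Zeb2 was not tested. Spi1 and Maf, picked for the motifs searched above and named after their values were seen, were lower in acute injury and in fibrosis. A link between their levels and those of the markers was not tested. Spi1 was at -2.23 in acute injury and -3.11 in fibrosis, and Maf at -3.61 and -3.48. In cirrhosis 10 of the 12 were higher than in fibrosis, Maf by 3.91, and Csf1 was lower (-0.97). Maf is an endothelial gene as well, and LSEC markers moved in the same direction; the part of LSECs in these values was not tested.

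Pan-myeloid genes, which neutrophils and monocytes share with macrophages, were lower in 11 of 15 tested in acute injury and in 10 of 15 in fibrosis, with none higher. Lyz2 fell most (-4.94 and -4.49) and Coro1a stood at -3.81 and -3.96, whereas Ptprc, the leukocyte antigen CD45, was at -0.13 and -0.24 and was not called. In cirrhosis all 15 were higher than in fibrosis and all 15 higher than in acute injury. Aif1, an actin-binding protein of macrophages, had the largest increase from fibrosis (5.22).

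Genes of monocytes and recruited macrophages were mostly higher where they were called. Their summed level over 11 genes was 368 CPM in the median of healthy LSECs, 1277 CPM in acute injury, 661 CPM in fibrosis and 602 CPM in cirrhosis. In acute injury 6 of 10 tested were higher, led by Spp1, the osteopontin of scar-associated macrophages (7.67), and Mmp12, macrophage elastase (5.11), and 2 were lower, led by Cx3cr1, the fractalkine receptor (-4.78). Of all genes tested there, 74.1% differed and 38.3% were lower. In fibrosis 5 were higher and 2 were lower, again led by Cx3cr1 (-4.73). Ccr2, the receptor of classical monocytes, was too low to be tested in any comparison, with at most 60 counts in a library, and Spp1 is also made by cholangiocytes and other cells.

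C1q starts the classical complement cascade. Of 14 genes of the cascade and its receptors and regulators, 11 were lower in acute injury and 1, Cd55, was higher (1.23). The lowest were C3 (-5.35) and C4a (-5.34, whose reads can be shared with C4b). In fibrosis 9 were lower and Cd55 was again the only one higher. C3ar1, the receptor for C3a on myeloid cells, was the lowest there (-4.19), while C1r was at -0.37 and not called. In cirrhosis 13 of 14 were higher than in fibrosis. C3, C4a and C4b are hepatocyte products, and hepatocyte transcripts summed to 1314 to 28730 CPM in healthy LSECs, 145 to 933 in acute injury, 1305 to 5156 in fibrosis and 3059 to 15250 in cirrhosis.

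Markers of other cells that the isolation could carry along are given for all lists. Hepatocyte genes were lower in 10 of 10 tested in acute injury, LSEC genes in 10 of 11, genes of T, B and NK cells in 7 of 8, of dendritic cells in 4 of 5, of stellate cells in 6 of 9 (1 was higher) and of cholangiocytes in 2 of 4 (1, Spp1, was higher), and the only neutrophil gene tested, Csf3r, was lower. Neutrophil genes summed to at most 44.5 CPM and T, B and NK cell genes to at most 250 CPM in any CCl4 library. The sums of hepatocyte, LSEC, dendritic, lymphoid and neutrophil genes were lower in acute injury, like that of the 10 markers. The sum of stellate cell genes was 290 to 787 CPM in healthy LSECs and 1316 to 2116 CPM in acute injury, mainly through Reln (166 ± 34.8 CPM, SD, n = 6, against 1670 ± 288 CPM, n = 5), while Col3a1 had a mean of 223 CPM in healthy LSECs and 5.20 CPM in acute injury and Lrat of 31.7 and 4.35 CPM. Their part in the marker results was not tested.

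The genes most like the markers over the 22 CCl4 libraries were found by the smallest root mean square difference of log2 CPM after each gene was centred on its own mean, among 8888 genes with a symbol and a mean log2 CPM of at least 3. Nearest to the mean of the 10 markers were Cd4 (0.463), Fcna (0.540), Ctss (0.541), Aif1 (0.593) and Cd74 (0.639). Cd4, a coreceptor that rat macrophages also carry, averaged 82.4 CPM in healthy LSECs, 8.27 in acute injury, 5.55 in fibrosis and 130 in cirrhosis. Nearest to C1qa were Cfp, the complement protein properdin (0.544), Cd4 (0.552), Fcna (0.589), Ctss (0.628) and Egr2 (0.671). For Clec4f the nearest were farther off, with Cfp and Cd4 both at 0.804, followed by Pld4 (0.847), Aif1 (0.881) and Sult1a1 (0.953). Among the markers themselves, the root mean square difference from their mean was smallest for C1qa (0.186) and largest for Cd68 (1.07).

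In the TAA experiment, 3 of the 10 markers were called higher in the libraries labelled TAA control than in those labelled control, where 13.5% of 14376 genes tested were higher and 29.4% differed. Csf1r was at 22.9, 27.5, 37.9, 6.43 and 12.2 CPM in the control libraries and at 52.6, 49.7, 31.8, 115 and 116 CPM in the TAA control libraries, which overlap by 1 library on each side (log2 difference 1.85, SE 0.497, adjusted p = 0.0103). Clec4f was at 27.5, 15.8, 28.6, 1.90 and 2.92 CPM and at 45.2, 21.0, 13.5, 43.5 and 53.5 CPM (log2 difference 1.78, SE 0.729, unadjusted p = 0.033, adjusted p = 0.063). C1qa was called as well (log2 difference 1.46, SE 0.649, unadjusted p = 0.0465, adjusted p = 0.0835). Of these 3, only Csf1r passed an adjusted p (12.7% of all genes passed with higher values), the groups overlapped for all 10 markers (17.7% of all genes did not overlap with higher values), and replicates 4 and 5 of the control group were the lowest for Clec4f, C1qa and Csf1r.

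The other 7 markers had differences from 0.63 (Marco, 95% interval -0.90 to 2.16) to 1.49 (Vsig4, -0.15 to 3.13) and were not called. Between them lay Cd68 (0.94), Cd163 (1.09), C1qc (1.23), Cd5l (1.24) and C1qb (1.26). The number called ranged from 1 to 8 when single libraries were left out: it was 8 without replicate 13 of the TAA control group, 5 without replicate 3 of the control group and 1 without replicate 10, 14 or 15 of that group or replicate 4 or 5 of the control group. Replicates 14 and 15 of the TAA control group differed little (chi-square of 2.97 per degree of freedom, against 23.9 or more in the remaining pairs of libraries within groups), yet beyond sampling noise, and were kept as 2 libraries. With their mean used as 1 library, only 1 marker was called.

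Around the markers, 13 of 15 pan-myeloid genes were higher in the libraries labelled TAA control, led by Coro1a (3.02) and Ptprc (2.76). Of all genes tested, 13.5% were higher there and 29.4% differed. Of 6 tested genes of T, B and NK cells, 5 were higher as well, Gzmb, at 0 to 21 counts in the control libraries, by 5.49, whereas 7 of 9 stellate cell genes were lower, led by Acta2 (-6.25). LSEC markers summed to 20540 to 26970 CPM in the control and 27670 to 36400 CPM in the TAA control libraries. Among the complement genes, 6 of 14 were lower, led by C1s (-3.50), and 1, Serping1, was higher.

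**Figure D5:**
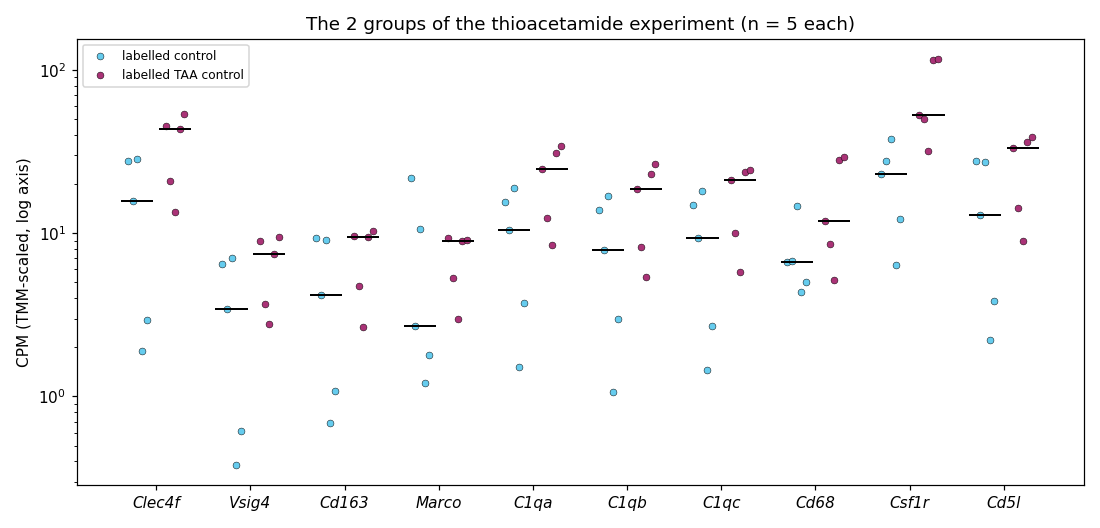
CPM of the 10 markers per library (log axis) in the 5 libraries labelled control and the 5 labelled TAA control of the thioacetamide experiment, scaled separately from the CCl4 libraries; points are libraries and bars are medians. The groups overlap for every marker, and Csf1r, at 6.43 to 37.9 CPM against 31.8 to 116 CPM, is the one that passes an adjusted p.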

How the data were processed

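RNA of isolated rat LSECs was measured in 32 samples, of which 22 belong to the CCl4 progression and 10 to the TAA animals. The authors prepared stranded poly(A) libraries, mapped the reads with STAR to Rnor_6.0 and deposited expected counts per gene from RSEM, not normalized, one table per library (FastQC, Trim Galore, STAR, RSEM and limma are named in the submitters' processing notes, whose versions are not given in the sources used here). An expected count shares reads between genes that cannot be told apart, so near-identical copies such as C4a and C4b are uncertain. Totals of 25646531 to 46464289 counts per library limited precision less than the spread between rats. Samples were grouped by the labels, which do not state that each library is a separate animal, so that p-values measure only the spread between these libraries.

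Here the expected counts were rounded, filtered with filterByExpr (edgeR 4.0.16), scaled with TMM and fitted with limma-voom 3.58.1 in R 4.3.3, each comparison on its own 2 groups and over all genes that passed. A gene was called at an unadjusted p under 0.05 and a fold-change above 1.5, as in the study's methods, with Benjamini-Hochberg adjusted p beside it. Fold-changes of genes are on the log2 scale unless a fold is named. CPM were scaled with TMM over the 22 CCl4 libraries and, separately, over the 10 TAA libraries, and are not per gene length, so that levels are not compared between genes (values relative to C1q are compared between stages, gene by gene). Log2 CPM used a pseudocount of 0.5 counts. Comparisons with healthy LSECs share the healthy libraries, and the other stages enter several comparisons as well. The 10 members and 12 lists of other genes were chosen with earlier results of these data known. All members are given in each comparison, other list genes by count and, for up to 4 per list, by the largest and smallest change. Csf1, Timd4, Ccr2, Ptprc, C1r, Spi1 and Maf were named after their values were seen. Alternatives were other tests (edgeR, DESeq2 1.42.0), scalings, filters, library weights, a single fit over the CCl4 groups, a replicate block and leaving out each library. The fits were tested on simulated data. Promoter windows came from RefSeq, build GRCr8. Itgam, Plac8, Pecam1 and Col1a2 had no row under these symbols and were not analysed here. A few members of the other lists enter the counts and are not reported here by name.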

Additional observations from a re-analysis of the deposited data

Results flagged for a closer look

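In acute injury, Cd68 in replicate 8 was at 18.6 CPM, below the other 4 libraries (33.4 to 40.1 CPM), and on the log2 CPM scale the gap was 0.759 of the whole range of the group. It was the only one of 60 groups of member values with such a gap, where chance gives about 3. Replicate 8 was also the lowest acute library for the other 9 markers.

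The decrease from healthy LSECs was larger in fibrosis than in acute injury for Cd163, a log2 difference of -2.76 (limma-voom adjusted p = 0.0114), with each of the 5 fibrosis libraries below each of the 5 acute libraries. For Csf1r the difference was -1.60 (adjusted p = 0.0349), with acute replicate 8 within the fibrosis range. The effect against healthy LSECs differed between cirrhosis and fibrosis for 10 of the 10 markers (64.2% of all genes by unadjusted p and fold-change). Between cirrhosis and acute injury it differed for 10 of the 10 as well (69.7% of all genes by the same rule). In each of these the healthy libraries cancel, so that the difference of effects is the comparison of the 2 stages itself.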

How the results depend on the processing

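All 10 markers stayed lower in acute injury and in fibrosis, and higher in cirrhosis than in either, under every alternative run, although not all stayed called. The number called was 9 to 10 in acute injury and 10 to 10 in fibrosis against healthy LSECs when single libraries were left out, and 10 to 10 in cirrhosis against fibrosis and against acute injury. In acute injury it was 9 by adjusted p, 9 without a low-count filter and 8 without TMM, and Cd163 lost its call in 8 of the 11 fits that left out a library. For cirrhosis against healthy LSECs it was 0 to 1 when single libraries were left out, 0 with edgeR, 0 by adjusted p and 0 with library weights. It was 7 without healthy replicates 3 and 5, which were picked for low marker levels. For fibrosis against acute injury it was 2 to 5 when single libraries were left out and 6 with library weights. For the TAA experiment it was 1 to 8 when single libraries were left out, 1 by adjusted p and 1 with replicates 14 and 15 averaged. Directions turned mostly in cirrhosis against healthy LSECs, where no such value was called except without replicates 3 and 5. With edgeR, Clec4f was -0.30, Marco -0.01, C1qb -0.50, C1qc -0.37 and Cd5l -0.31, and with DESeq2 -0.31, -0.02, -0.51, -0.37 and -0.31. With library weights they were -0.55, -0.22, -0.72, -0.60 and -0.46. Without replicates 3 and 5, Clec4f was -0.91, Cd163 -0.01, Marco -0.77, C1qb -1.02, C1qc -0.89 and Cd5l -0.88. Without TMM, C1qa was 0.31 and Cd68 0.04. C1qa was 0.10 with upper-quartile factors, and C1qb was 0.00 with another filter and with a single fit. When single libraries were left out, C1qa ranged from -0.48 to 0.27, C1qb from -0.45 to 0.34, C1qc from -0.32 to 0.45, Cd5l from -0.43 to 0.30, Clec4f from -0.34 to 0.60 and Marco from -0.22 to 0.53. Between acute injury and fibrosis, Cd5l ranged from -0.42 to 0.28, Cd68 from -0.56 to 0.02 and Marco from -0.38 to 0.74, and Marco was -0.28 with library weights. In the TAA experiment Marco was -0.09 with edgeR and -0.10 with DESeq2. The cause was not tested. Without TMM the median of all genes against healthy LSECs moved by 0.41 in acute injury, 0.40 in fibrosis and 0.35 in cirrhosis. Replicate numbers shared between groups did not pair the libraries (correlations of 0.04 to 0.15 for acute injury and healthy LSECs, -0.21 to 0.23 for cirrhosis and healthy LSECs, and -0.07 to 0.06 for cirrhosis and acute injury), and a replicate block left 10, 1 and 10 markers called. Of the counts over other lists, 44 of those with a library left out and 50 of those under other settings moved by more than 1.5 times.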

Other observations

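Some macrophage genes outside the 10 markers were above the healthy level in cirrhosis, a comparison in which 28.8% of all genes tested were higher. Of 10 tested genes of monocytes and recruited macrophages, 5 were higher than in healthy LSECs and none was lower in limma-voom, led by Mmp12 (log2 difference 4.24) and Spp1 (3.89). Mmp12 was at 17.5 to 94.6 CPM in cirrhosis and at 1.10 to 4.0 CPM in healthy LSECs. The number was 3 without healthy replicate 3, healthy replicate 5, both of these, or cirrhosis replicate 4, 5 or 6. Of the 15 pan-myeloid genes, 4 were higher, Cybb by 1.56 and Aif1 by 1.32, and Coro1a was lower (-1.52). Of 12 lineage factors and ligands, 4 were higher, led by Spic, a factor of iron-recycling macrophages (1.82), and 4 were lower, Rxra (-1.45) and Nr1h3 (-1.13) most. Of 14 complement genes 5 were higher, among them the regulator Cd55 (1.65), and Serping1, the C1 inhibitor, was lower (-1.33). The shares of the last 3 lists lie near that of all genes. Of other cell types, 6 of 9 stellate cell genes, 4 of 6 cholangiocyte genes, Spp1 among them, and 3 of 6 dendritic cell genes were higher in the same comparison.

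Among the lists of macrophage and complement genes, that of complement had most increases between acute injury and fibrosis. In it 7 of 14 were higher and C5ar1, a receptor of myeloid cells, was lower (-1.98). Of all genes tested in this comparison, 15.7% differed and 1.39% were lower. C3 rose most, by 3.42 on the log2 scale, from 7.21 to 39.1 CPM in acute injury to 75.9 to 304 CPM in fibrosis. All 10 hepatocyte genes were higher in fibrosis as well, and their part in this rise was not tested. In the TAA experiment, 5 of 11 tested genes of resident macrophages were higher in the libraries labelled TAA control, Lilrb4 by 2.34 and Slc11a1 by 2.23, and 2 were called without control replicate 4 or 5. With all libraries, 13.5% of all genes tested were higher.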
